A study of Mus musculus with 16 samples.

Results

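Integrins are receptors made of 1 alpha and 1 beta chain, and laminins are basement membrane proteins made of 1 alpha, 1 beta and 1 gamma chain. The genes of both families were described in liver and kidney of ADV-conditioned and LD-conditioned mice. They were taken by symbol (Itga, Itgb, Lama, Lamb and Lamc followed by the letters or number of a chain), which gave 37 of the 32989 genes listed. Itga4 was listed at 2 rows, and the row with the higher mean was used. The genes comprised 12 alpha chains and 6 beta chains of integrins that bind matrix, 11 laminin chains, and 8 integrin chains carried mainly by leukocytes (Itgal, Itgam, Itgax, Itgad, Itgae, Itga4, Itgb2 and Itgb7).

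RNA-seq of liver and kidney was performed on 8 male C57BL/6J mice, 4 in each group. The LD-conditioned mice (L63, L65, L86 and L104) lived under light from 8:00 to 20:00. For the ADV-conditioned mice (A75, A91, A94 and A115) the light schedule was advanced by 8 h once every 4 days. Both schedules lasted 85 weeks, and the mice were 97 weeks old. Each library was made from a whole piece of organ, so fewer cells of a type and less RNA per cell cannot be told apart.

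A laminin trimer is assembled inside the cell, secreted, and polymerized into the sheet on which epithelium and endothelium rest. Integrins with the beta-1 chain hold cells to laminin, collagen and fibronectin, those with the alpha-v chain recognise short RGD motifs and can activate latent TGF-beta, and those with the beta-2 or beta-7 chain let leukocytes attach to vessel wall and tissue. In liver the sinusoids lack a continuous basement membrane, whereas in kidney every tubule and glomerular loop is wrapped in one.

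Values are FPKM, that is fragments per kilobase of exon, scaled to the size of the library. The libraries held 21092500 to 24285100 fragments on genes in liver and 15688500 to 18043300 in kidney. In liver every ADV-conditioned library held fewer of these fragments than every LD-conditioned library. There 1 fragment per kilobase of exon stood for 0.0427 to 0.0440 FPKM in ADV and 0.0380 to 0.0409 in LD. Hepatocyte markers summed to 57618 to 71337 FPKM in liver against 711 to 1075 in kidney, and proximal tubule markers to 356 to 2079 in kidney against at most 0.119 in liver. In liver, A94 stood apart, with a mean correlation of 0.941 with the other livers, where the 7 others reached 0.977 to 0.982. In kidney it was A115, at 0.858 where the 7 others reached 0.932 to 0.964, with 30.9% mitochondrial transcripts where the other kidneys had 8.63% to 16.5%. The sequencing was carried out by 2 providers on 2 instruments, and which library ran on which is not given in the sources used here. Provider and instrument therefore cannot be told apart from group or from organ.

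The 2 organs were set side by side first, over both lighting conditions. Beta-1, the partner of most matrix-binding alpha chains, was the most abundant of the 37 in both, with a mean over 8 mice of 95.1 FPKM in kidney and 44.4 in liver. In kidney the alpha chains were led by Itgav (25.3), Itga6 (19.6), Itga1 (11.1) and Itga3 (9.13), of which alpha-3 and alpha-6 are laminin receptors. In liver, Itgav (4.26), Itga1 (3.81) and Itga5 (3.52) led, and Itga6 (0.515) and Itga3 (0.803) were low. Itga5, the fibronectin receptor chain, was 2.08 times as high in liver as in kidney.

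The widest gaps between the organs were those of Itgb6 and Itgb8, beta chains of epithelium. Itgb6 had a mean of 16.8 FPKM in kidney and 0.0315 in liver, and Itgb8 of 16.98 and 0.133. Both pair with alpha-v to activate latent TGF-beta. Itgb4, the hemidesmosome chain that pairs with alpha-6, had 0.880 and 0.0758. In liver these 3 genes, with Itga2, Itga11 and Itgad, remained below a mean of 0.5 CPM (fragments scaled to library size) and were not tested, which left 31 genes tested. In kidney only Itgad remained below, and 36 were tested. Itgad was held by at most 3.5 fragments in a liver library.

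For 8 of the 11 laminin chains every kidney lay above every liver. Lamb1 was the leading beta chain with 25.9 FPKM in kidney and 1.53 in liver, and Lamc1, the gamma chain of most laminins, had 5.21 and 2.02. Lama5, the alpha chain of the adult glomerular membrane, had 4.52 and 0.194. In the LD-conditioned kidneys Lama5 made up 31.9% ± 4.11 (SD, n = 4) of the summed FPKM of the 5 laminin alpha chains and Lama3 27.1% ± 2.77. In the LD-conditioned livers Lama3 made up 46.9% ± 7.15 and Lama4, a chain of endothelial membranes, 29.2% ± 2.89. For 18 of the 37 genes every kidney lay above every liver, where this held for 34.9% of 14968 genes, and for none did every liver lie above every kidney (8.57% of all genes). The 18 were 6 alpha chains, 4 beta chains and 8 laminin chains, with no leukocyte chain among them. Each organ has its own table scaled by its own library totals, so these levels are given without a test.

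**Figure D1:**
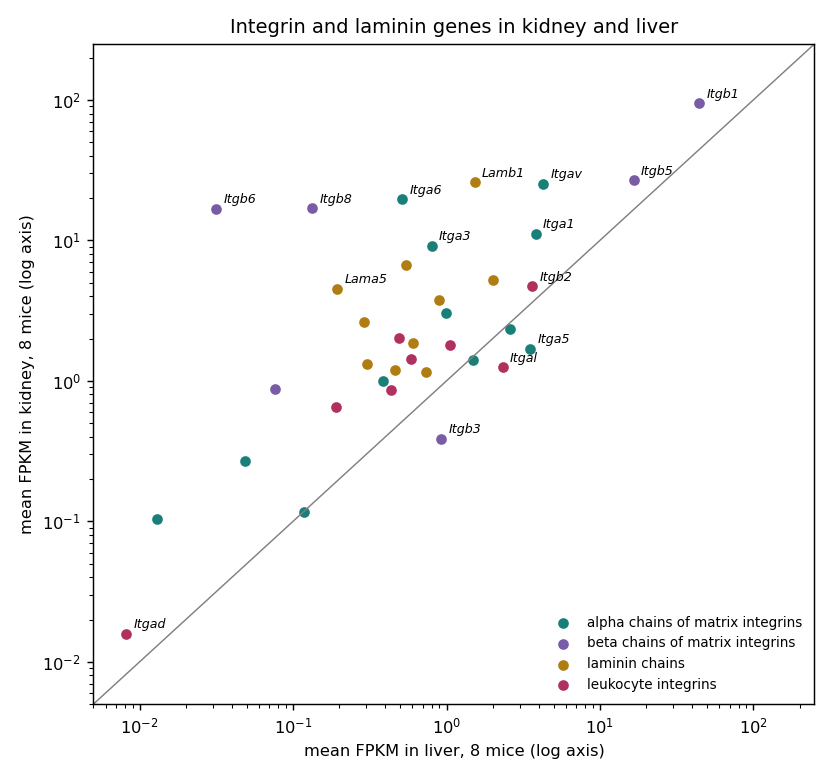
Mean FPKM of 36 of the genes over 8 mice in liver (horizontal, log axis) and kidney (vertical, log axis), colored by group, with the line of equal levels. Itgb6 and Itgb8 lie farthest above the line, at 16.8 and 16.98 FPKM in kidney against 0.0315 and 0.133 in liver, and Itga5, Itgal and Itgb3 lie below it.

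In liver, ADV-conditioned mice were compared with LD-conditioned mice to ask whether the receptors and their basement membrane ligands differed after the long phase-advance schedule. No integrin or laminin gene passed an adjusted p of 0.05 in limma, a threshold that 0.00779% of the 12835 genes passed. At an unadjusted p under 0.05, 5 of the 31 genes tested were higher in ADV (Itga1, Itga7, Itga8, Itgb3 and Lamb1), where 8.65% of all genes were, and 2 were lower (Lama3 and Lamb3), where 3.13% were. All 4 ADV-conditioned livers lay above all 4 LD-conditioned livers for 8 of the 31 genes (these 5 higher genes with Lama2, Itga4 and Itgae), against 6.94% of all genes, and below them for none (1.89% of all genes). Of these 8, Itgae passed the filter on low values only with A94 included. With limma-voom on the fragments recovered from the values, the same 5 and 2 genes had an unadjusted p under 0.05 (8.01% and 3.08% of all genes), and none an adjusted one. In 1 fit of both organs, with or without the mouse as a block, Itga7 and Lamb3 were no longer among them, with standard errors of 0.73 and 0.48 under the block. The log2 fold change, taken on log2(FPKM + 0.1), which understates changes of low genes, was above 0 for 27 of the 31 genes and for 65.7% of all genes.

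The scale of the libraries bears on that last count. As deposited, all genes together had a median of 0.096 on the log2 scale, which became -0.002 after median-ratio scaling and -0.027 after quantile normalization, under which 25 and 23 of the 31 genes were above 0 (49.7% and 45.7% of all genes). The 31 genes had a median of 0.43, 0.37 and 0.16 under these scalings. By group, the deposited values gave 0.40 for the alpha chains, 0.24 for the beta chains, 0.25 for the laminins and 0.79 for the leukocyte integrins (-0.068 for the laminins after quantile normalization), with 9 of 10, 3 of 3, 8 of 11 and 7 of 7 tested genes above 0. Without A94 these medians were 0.24, 0.12, 0.13 and 0.40, that of all integrin and laminin genes tested 0.20, and that of all genes 0.025.

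**Figure D2:**
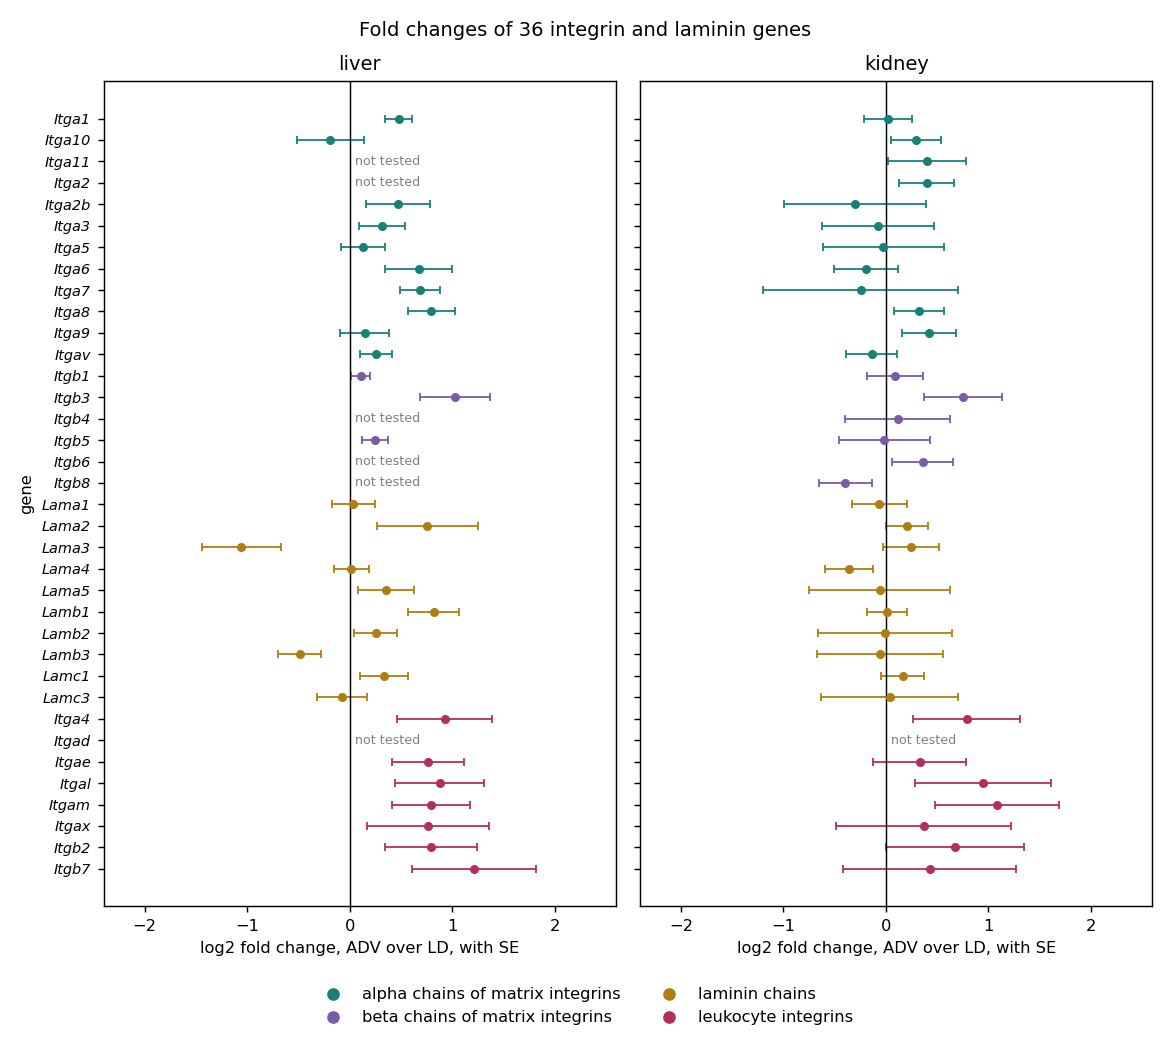
Log2 fold change of ADV over LD for 36 of the genes in liver (left) and kidney (right), with bars for the standard error of the limma fit and colors for the groups. In liver most points lie to the right of 0, with Itgb7 farthest right (1.22) and Lama3 farthest left (-1.06), and in kidney the bars are wider.

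Among the alpha chains that bind matrix, Itga1 (mm10 chr13:114958079-115101964, minus strand) encodes the collagen receptor chain found on mesenchymal cells and sinusoidal endothelium. It had 3.04, 3.20, 2.91 and 3.49 FPKM in the LD-conditioned livers and 4.04, 3.95, 5.49 and 4.39 in the ADV-conditioned livers A75, A91, A94 and A115. The groups did not overlap, with A94 the highest. The log2 fold change was 0.48 ± 0.13 (SE, n = 4 per group, adjusted p = 0.306 in limma). Itga1 shares 685 exon bases on its own strand with the protein-coding gene model Gm49395, which is not among the rows counted.

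Itga8 (chr2:12106660-12301920, minus strand), the nephronectin receptor chain of stellate and smooth muscle cells, had 0.789, 0.607, 0.655 and 0.667 FPKM in L63, L65, L86 and L104 and 1.01, 1.01, 2.02 and 1.17 in A75, A91, A94 and A115. Every ADV-conditioned liver was higher than every LD-conditioned liver, again with A94 the highest, and the log2 fold change was 0.80 ± 0.23 (adjusted p = 0.31). It shares 372 exon bases with the opposite-strand gene E030013I19Rik. Itga7 (chr10:128933813-128958286, plus strand), a laminin receptor chain best known from muscle, had 0.946, 1.16, 1.18 and 1.10 against 1.59, 1.61, 1.57 and 2.67, in the same order of mice. Here 3 ADV-conditioned livers lay close together above the LD range and A115 well above them. This gave a log2 fold change of 0.68 ± 0.19 (adjusted p = 0.306), and Itga7 shares 9 exon bases on the opposite strand with the liver-rich gene Mettl7b.

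Itgb3 (chr11:104608000-104670473, plus strand) pairs with alpha-v on endothelium, macrophages and myofibroblasts and with alpha-2b on platelets. Its levels were 0.326, 0.412, 0.759 and 0.768 FPKM in the LD-conditioned livers and 0.782, 0.844, 1.71 and 1.78 in the ADV-conditioned livers. The groups did not overlap but touched, since L86 and L104 lay just below A75. The log2 fold change of 1.03 ± 0.34 (adjusted p = 0.357) was the largest among the matrix integrins in liver. Its partners on platelets and elsewhere had smaller values, with 0.47 ± 0.31 for Itga2b (adjusted p = 0.528) and 0.26 ± 0.15 for Itgav (adjusted p = 0.498).

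Itgb1 and Itgb5 were the 2 most abundant beta chains of the liver. Itgb1 had a mean of 42.6 ± 1.71 FPKM (SD, n = 4) in LD and 46.1 ± 4.56 in ADV, which gave 0.11 ± 0.094 on the log2 scale (adjusted p = 0.605). Itgb5, which pairs with alpha-v as a vitronectin receptor, had 14.2, 15.5, 15.7 and 14.9 in LD and 16.8, 15.5, 23.0 and 16.9 in ADV. A94 was high and A91 lay within the LD range, and the log2 fold change was 0.24 ± 0.13 (adjusted p = 0.465). Without A94 the log2 fold changes were 0.12 for Itgb5, 0.049 for Itgb1, 0.15 for Itgav and 0.26 for Itga2b.

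**Figure D3:**
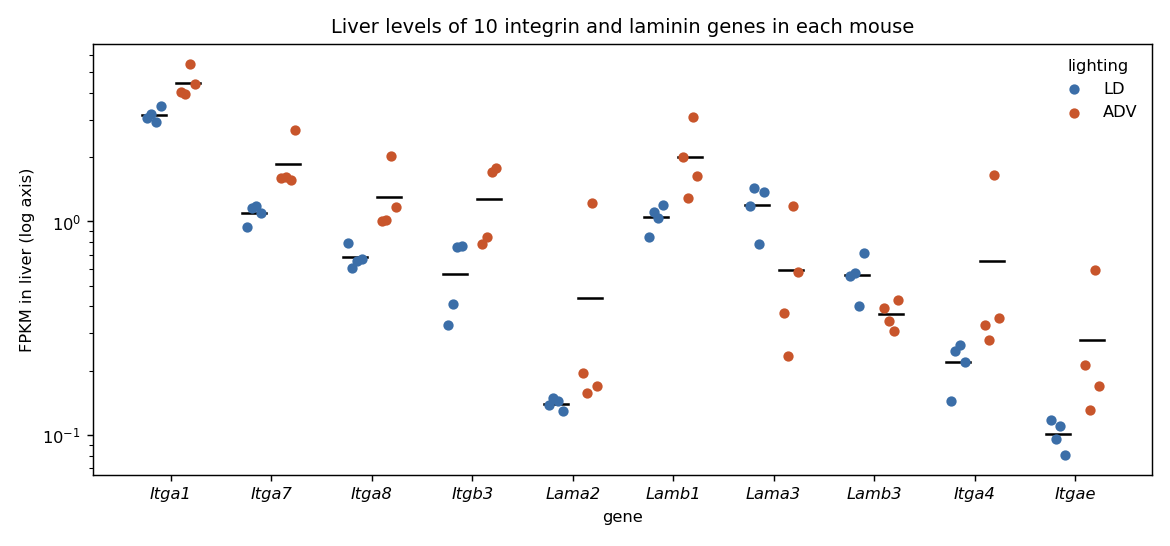
FPKM in liver (log axis) of 10 integrin and laminin genes in each LD-conditioned (blue) and ADV-conditioned (orange) mouse, with a line at each group mean. All 4 ADV points lie above all 4 LD points for 8 of the genes, and Lama3 and Lamb3 are lower in ADV with groups that overlap.

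Among the laminin chains of the liver, Lamb1 was higher and Lama3 and Lamb3 lower at an unadjusted p under 0.05, and none passed the adjusted threshold. Lamb1 (chr12:31265294-31329639, plus strand), the common beta chain, had 0.850, 1.11, 1.04 and 1.19 FPKM in the LD-conditioned livers and 2.01, 1.29, 3.09 and 1.64 in the ADV-conditioned livers. The groups did not overlap, and A91 was the ADV-conditioned liver nearest to the LD range. On the log2 scale ADV was higher by 0.82 ± 0.25 (adjusted p = 0.323).

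Lama3 and Lamb3 encode the alpha and beta chains of laminin-332, the laminin of anchoring epithelia. Lama3 had 1.18, 1.43, 0.784 and 1.38 FPKM in L63, L65, L86 and L104 and 0.372, 0.234, 1.18 and 0.579 in A75, A91, A94 and A115. Only A94 reached into the LD range, and the log2 fold change was -1.06 ± 0.39 (adjusted p = 0.378, exact two-sided permutation p = 0.0571). Lama3 shares 197 exon bases with the opposite-strand gene Gm29200. Lamb3 had 0.557, 0.574, 0.401 and 0.714 in LD and 0.392, 0.343, 0.305 and 0.428 in ADV, so that only L86 reached into the ADV range. For Lamb3 it was -0.49 ± 0.21 (adjusted p = 0.412, exact two-sided permutation p = 0.0571).

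The make-up of the laminin chains within a liver, which does not depend on library scaling, was looked at after these values had been seen and is given without a test. Lamb1 made up 47.1% to 54.9% of the summed FPKM of the 3 beta chains in LD and 59.4% to 74.3% in ADV, and Lamb3 made up 21.3% to 30.9% in LD and 7.33% to 16.4% in ADV. Lama3 made up 36.3% to 51.2% of the alpha chains in LD and 15.95% to 30.3% in ADV. For each of these 3 shares the groups did not overlap, nor did they for Lama2 (4.61% to 6.66% in LD and 7.88% to 31.5% in ADV). The shares of Lama1, Lama4, Lama5, Lamb2, Lamc1 and Lamc3 overlapped. Shares of 1 sum depend on each other, so a larger share of Lamb1 leaves less for Lamb3. The ratio of Lamb1 to Lamb3 was 1.53 to 2.58 in LD and 5.13, 3.76, 10.1 and 3.83 in A75, A91, A94 and A115.

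Lama2, the alpha chain of muscle and interstitial membranes, had 0.138, 0.149, 0.144 and 0.129 FPKM in LD and 0.195, 0.157, 1.23 and 0.170 in ADV. The groups did not overlap, but 3 ADV-conditioned livers lay just above the LD range and A94 far above it. This gave 0.76 ± 0.50 on the log2 scale (adjusted p = 0.527) and 0.19 without A94. Lama2 rested on 30.5 to 269 fragments in a liver library. The narrow gap between A91 (0.157) and L65 (0.149) therefore depends on the scaling to library size, which was smaller in every ADV-conditioned liver.

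The upstream sequences of Lamb1 and Lamb3, the beta chains that lay in opposite directions in liver, are shown together with those of Itgam and Itga4, 2 leukocyte chains. They are the bases before the first annotated exon, up to 250 before the start site, from the RefSeq promoter table of GRCm38.p6, all on the plus strand and written 5′ to 3′. Capitals mark GAGGAA, a core bound by ETS factors, and GGGCGG, the GC box, each on either strand (TTCCTC and CCGCCC when on the other), and no 2 matches overlap. The positions are chr12:31265043-31265233 for Lamb1, chr1:193301744-193301992 for Lamb3, chr7:128062390-128062639 for Itgam and chr2:79255176-79255425 for Itga4.
Lamb1: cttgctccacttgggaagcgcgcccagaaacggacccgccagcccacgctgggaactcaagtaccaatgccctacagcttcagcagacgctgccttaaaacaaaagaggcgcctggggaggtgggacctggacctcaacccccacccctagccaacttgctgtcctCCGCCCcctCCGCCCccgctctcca
Lamb3: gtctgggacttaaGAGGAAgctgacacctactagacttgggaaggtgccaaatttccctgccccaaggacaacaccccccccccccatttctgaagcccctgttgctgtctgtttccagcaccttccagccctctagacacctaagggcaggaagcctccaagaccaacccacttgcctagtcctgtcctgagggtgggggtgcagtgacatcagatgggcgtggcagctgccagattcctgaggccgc
Itgam: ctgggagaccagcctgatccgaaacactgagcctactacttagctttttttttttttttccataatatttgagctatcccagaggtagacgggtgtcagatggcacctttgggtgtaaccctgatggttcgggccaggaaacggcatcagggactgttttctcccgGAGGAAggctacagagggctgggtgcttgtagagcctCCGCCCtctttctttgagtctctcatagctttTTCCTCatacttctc
Itga4: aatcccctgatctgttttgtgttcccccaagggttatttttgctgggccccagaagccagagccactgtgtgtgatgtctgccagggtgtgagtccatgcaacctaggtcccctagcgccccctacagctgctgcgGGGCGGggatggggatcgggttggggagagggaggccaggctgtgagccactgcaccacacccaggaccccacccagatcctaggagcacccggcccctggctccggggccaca
Lamb1 held 2 GC boxes in this stretch and Lamb3 none. Itgam held GAGGAA at 2 places and Itga4 none. Of the 37 genes, 23 had an entry in the promoter table, and for 22 of them it lay within 100 bases of the start of the row counted. Of these 22, 12 held GAGGAA in the 250 bases before the start, where 23.3% of all 32851 promoters did (that of Lamb1 lies in the last 59 bases, which are annotated exon and are not printed), and 8 held GGGCGG (32.7% of all). CACGTG, the E-box bound by the clock proteins CLOCK and BMAL1, was in none of the 22 (6.02% of all), and TATAAA was in none (12.4% of all). These matches describe letters in a window only.

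The leukocyte integrins had the highest values in A94, in both organs. In liver A94 was the highest of the 8 mice for 7 of 7 tested leukocyte chains, and in kidney for 6 of 7, where it was the highest for 49.7% and 26.2% of all genes. The chains summed to 3.68 to 6.78 FPKM in the LD-conditioned livers and to 5.74 to 29.2 in the ADV-conditioned livers. In kidney they summed to 5.30 to 13.3 in LD and 6.07 to 43.0 in ADV.

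Itgb2, the common beta-2 chain of leukocytes, had 1.62, 1.86, 3.11 and 2.62 FPKM in the LD-conditioned livers and 2.99, 2.36, 11.4 and 2.93 in the ADV-conditioned livers. The values of A75, A91 and A115 lay within the LD range and A94 well above it. Itgal, the alpha chain of LFA-1, had 1.15, 1.07, 1.77 and 1.68 against 1.97, 1.64, 7.40 and 1.94. The ratio of Itgal to Itgb2 was 0.569 to 0.711 in LD and 0.646 to 0.698 in ADV, so that both chains were high together in A94.

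Itga4, which pairs with beta-1 or beta-7 to bind VCAM-1 and MAdCAM-1, and Itgae, the chain of epithelial-resident T cells that binds E-cadherin, were the leukocyte chains whose liver groups did not overlap. Itga4 had 0.144, 0.246, 0.264 and 0.221 FPKM in LD and 0.329, 0.278, 1.65 and 0.354 in ADV, a log2 fold change of 0.93 ± 0.46 (adjusted p = 0.451). Itgae had 0.118, 0.0960, 0.110 and 0.0805 in LD and 0.213, 0.131, 0.595 and 0.170 in ADV, which gave 0.77 ± 0.35 (adjusted p = 0.434). For both, A91 was just above the LD range and A94 far above it. Itgae rested on few fragments, 7.5 to 51.5 in a liver library. For 4 against 4 mice an exact two-sided permutation test cannot go below p = 0.0286. Any gene without overlap takes this value, so for the 8 such liver genes the test adds nothing to the lack of overlap. Itga4 shares 1124 exon bases with the opposite-strand gene Cerkl.

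Itgam encodes the alpha chain of the complement receptor Mac-1 on macrophages and neutrophils. Its liver levels were 0.250, 0.314, 0.634 and 0.355 FPKM in LD and 0.973, 0.302, 1.18 and 0.690 in ADV. A91 lay within the LD range and the 3 others above it, and the log2 fold change was 0.79 ± 0.38 (adjusted p = 0.443). Itgam shares 3450 exon bases on its own strand with the gene model Gm49368, which is not among the rows counted.

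The leukocyte markers of the liver were not alike in every list. The 6 markers of all leukocytes summed to 29.4 to 33.1 FPKM in the LD-conditioned livers and to 36.5 to 135 in the ADV-conditioned livers, with 3 of 6 markers higher in every ADV than in every LD mouse (6.94% of all genes) and all 6 highest in A94 (49.7% of all genes). The 8 markers of macrophages and Kupffer cells summed to 87.7 to 121 in LD and 121 to 390 in ADV, with 5 of 8 higher in every ADV than in every LD mouse and 7 highest in A94. The neutrophil markers summed to 6.79 to 12.1 in LD and to 16.4, 10.4, 101 and 4.58 in A75, A91, A94 and A115, the NK-cell markers to 1.05 to 1.41 and to 1.58, 1.57, 8.81 and 0.986, and the dendritic-cell markers to 1.29 to 2.16 and to 1.57, 2.02, 4.61 and 1.69. No gene of these 3 lists was higher in every ADV than in every LD mouse, whereas 2 of 6 T-cell markers were (6.94% of all genes), with sums of 1.32 to 2.15 in LD and 2.04, 2.07, 17.3 and 2.18 in ADV. B-cell and plasma-cell markers reached 691 for liver and 540 for kidney in A94, where the other livers had at most 18.4 and the other kidneys at most 60.6. Without A94 the log2 fold changes in liver were 0.29 for Itgb2, 0.39 for Itgal, 0.55 for Itgb7, 0.07 for Itgax, 0.41 for Itga4 and 0.57 for Itgam, and Itgae then had too few fragments to be tested. The part of leukocyte number in the values of the leukocyte integrins was not tested.

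**Figure D4:**
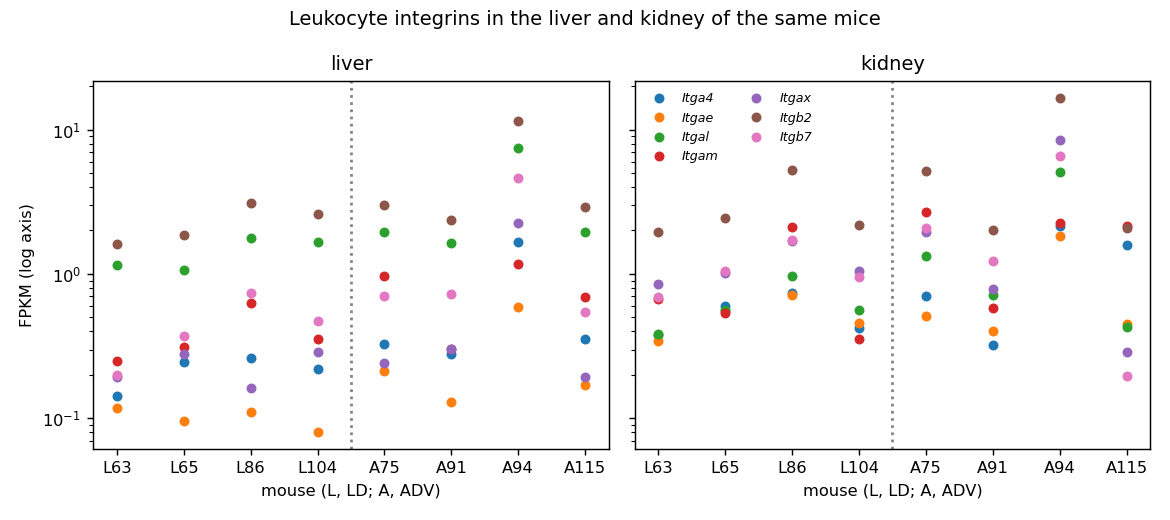
FPKM (log axis) of 7 leukocyte integrin genes in each mouse, in liver (left) and kidney (right), with LD-conditioned mice before and ADV-conditioned mice after the dotted line. A94 has the highest values in both organs for all but kidney Itgam, with Itgb2 at 11.4 FPKM in liver and 16.6 in kidney.

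The marker sums of stellate cells and fibroblasts, platelets, endothelium, cholangiocytes and smooth muscle were higher in A94 than in every LD-conditioned liver, although not every marker was, whereas the hepatocyte sum of A94, 58212 FPKM, lay within the LD range. The 8 markers of stellate cells and fibroblasts summed to 121 to 139 FPKM in LD and 167 to 302 in ADV, with 2 of 8 higher in every ADV than in every LD mouse (6.94% of all genes) and all 8 highest in A94 (49.7% of all genes). The 6 platelet markers, one of which is Itga2b, summed to 1.14 to 1.83 in LD and 2.11 to 8.28 in ADV, with 2 of 6 higher in every ADV mouse, the 7 endothelial markers to 64.7 to 69.5 and 69.7 to 93.4, and the 5 cholangiocyte markers to 20.0 to 27.8 and 26.7 to 247. None of the endothelial or cholangiocyte markers was higher in every ADV mouse. In A94 the sinusoidal endothelial markers Clec4g (30.1, against 40.9 to 43.6 in LD) and Kdr (5.44, against 6.46 to 7.79) lay below every LD-conditioned liver, and Spp1, osteopontin, made up 242 of the cholangiocyte sum, with the bile duct keratin Krt19 at 0.815. The 4 smooth muscle markers summed to 2.49 to 4.14 in LD and to 26.1, 3.85, 23.1 and 7.90 in A75, A91, A94 and A115, and none was higher in every ADV mouse. None of these markers was at 0 in every liver of a group. Their part in the values of Itga1, Itga8, Itgb3, Lamb1 and the other matrix genes was not tested. Without A94, which was the highest liver for 21 of the 31 genes (49.7% of all genes), Itga1, Itga7, Itga8, Itgb3 and Lamb1 were again the genes higher at an unadjusted p under 0.05 (8.8% of all genes), with log2 fold changes of 0.38, 0.75, 0.58, 0.87 and 0.60. Lama3 was then below every LD-conditioned liver (5.19% of all genes) at -1.41 ± 0.27 (adjusted p = 0.125). Without A91, 13 of 32 tested genes were higher at an unadjusted p under 0.05, against 13.4% of all genes, and 0 were lower (3.93% of all genes), so that Lama3 and Lamb3 lost that call, with log2 fold changes of -0.77 and -0.47. Without A94, 1 was lower at this p, Lama3 (5.66% of all genes).

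In kidney, no gene of the 36 tested passed an adjusted p of 0.05 in limma (0.9999 for each), as none of the 14452 genes did (0%), and none had an unadjusted p under 0.05, in limma or limma-voom, where in limma 1.75% of all genes were higher and 1.35% lower. In no case did all ADV-conditioned kidneys lie above or below all LD-conditioned kidneys (0.962% and 1.83% of all genes). The log2 fold change was above 0 for 23 of 36, against 46.4% of all genes. The median was 0.10 over the 36 genes, where it was -0.02 over all genes, and 0.67 over the leukocyte integrins. The median over the genes tested depended on single mice, at 0.47 without A115, -0.0033 without A94 and -0.018 without A75, and the count above 0 was 30 of 36 without A115 (67.8% of all genes) and 16 of 35 without A94 (35.7%).

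The smallest p among the matrix integrins in kidney belonged to Itgb3, with 0.210, 0.223, 0.333 and 0.210 FPKM in L63, L65, L86 and L104 and 0.771, 0.314, 0.814 and 0.226 in A75, A91, A94 and A115. A75 and A94 were high, and A91 and A115 lay within the LD range. This gave a log2 fold change of 0.75 ± 0.38. Itgb8 had 23.9, 19.2, 14.9 and 18.4 in LD and 13.6, 14.5, 9.73 and 21.7 in ADV, where A75, A91 and A94 were below the LD range and A115 within it, with -0.40 ± 0.26 (-0.60 without A115 and -0.21 without A94).

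Among the alpha chains of the kidney, Itga9, a receptor chain for tenascin and osteopontin, had 1.63, 1.94, 2.43 and 1.85 FPKM in LD and 3.57, 1.998, 3.40 and 1.97 in ADV (0.42 ± 0.26). Itga2, a collagen receptor chain of epithelium and platelets, had 0.185, 0.216, 0.264 and 0.191 against 0.511, 0.182, 0.291 and 0.324 (0.40 ± 0.27). A75 was the highest kidney for both, and A91 lay within or below the LD range. Without A75 the values were 0.28 for Itga9 and 0.21 for Itga2.

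For the laminins of the kidney the smallest p-values were those of Lama4 and Lama2. Lama4 had 1.54, 1.11, 1.29 and 1.30 FPKM in LD and 1.31, 0.927, 1.10 and 0.713 in ADV (-0.36 ± 0.23). Lama2 had 2.73, 2.29, 2.39 and 2.20 against 3.44, 2.26, 3.25 and 2.34 (0.20 ± 0.20). In both genes the groups overlapped, and the value was -0.22 for Lama4 without A115 and 0.10 for Lama2 without A75. Lamb1 had 25.8, 24.8, 27.8 and 23.4 in the LD-conditioned kidneys and 36.4, 24.7, 24.4 and 19.7 in the ADV-conditioned kidneys, a log2 fold change of 0.01 ± 0.20.

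The leukocyte chains with the smallest p in kidney were Itgam and Itga4. Itgam had 0.670, 0.534, 2.13 and 0.355 FPKM in LD and 2.69, 0.577, 2.27 and 2.14 in ADV. L86 lay as high as the ADV-conditioned kidneys A94 and A115, and A91 lay with the other LD-conditioned kidneys. Its difference on the log2 scale was 1.09 ± 0.61. Itga4 had 0.376, 0.596, 0.736 and 0.422 in LD and 0.700, 0.320, 2.16 and 1.59 in ADV (0.79 ± 0.52, with 0.43 without A94 and 1.24 without A91). The markers of all leukocytes summed to 25.7 to 45.1 in the LD-conditioned kidneys, highest in L86, and to 54.4, 28.9, 157 and 41.4 in A75, A91, A94 and A115. Without A94 the median over the leukocyte integrins of the kidney was 0.04.

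A115 lay far from the other kidneys. It was the lowest of the 8 kidneys for 16 of the 36 genes and for 55.4% of all genes, and for 8 of the 11 laminin chains. Lamb2, the beta chain of the mature glomerular and neuromuscular membranes, had 5.34, 5.83, 6.12 and 6.00 FPKM in LD and 12.2, 8.34, 8.84 and 1.18 in ADV. Lama5 had 3.39, 3.90, 4.13 and 4.19 against 9.30, 5.12, 5.45 and 0.683, and Lamc3 had 1.66, 1.38, 1.43 and 1.78 against 2.40, 2.71, 3.21 and 0.257. For these 3 laminins A75, A91 and A94 lay above the LD range and A115 far below it.

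Itgb1, in contrast, had 85.7, 89.3, 99.8 and 81.5 FPKM in the LD-conditioned kidneys, 80.3, 72.1 and 80.7 in A75, A91 and A94, and 171 in A115. Itga6, Itgav, Itga1, Itga8 and Itgb6 were also highest in A115. Itga7 was at 0.0131 in A115, where the other kidneys had 0.870 to 2.32. All 5 proximal tubule markers were lowest in A115 (55.4% of all genes) and summed to 356 there, where the other kidneys had 1219 to 2079, and the podocyte markers summed to 49.2 where the others had 66.1 to 81.9. Of the 5 markers of loop of Henle, distal tubule and collecting duct 4 were lowest in A115, with a sum of 1132 where the others had 1781 to 2926. The cholangiocyte list was highest there, at 8235, with 6820 in A75 and 664 to 2793 in the others. The part of this library's make-up in the kidney values was not tested.

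Without A115 the kidney comparison gave other calls. Itga7, Itgb5, Lama5, Lamb2 and Lamc3 were then higher at an adjusted p under 0.05, 5 of 36 genes where 16.1% of all genes were higher and 2.68% lower. The log2 fold changes were 0.83 ± 0.20 for Itga7, 0.47 ± 0.12 for Itgb5, 0.70 ± 0.21 for Lama5, 0.72 ± 0.15 for Lamb2 and 0.79 ± 0.16 for Lamc3, where with all 8 kidneys they were -0.25, -0.016, -0.062, -0.0098 and 0.036, while the median of all genes stood at 0.20. With the libraries brought to a common median ratio as well, Itga7, Lamb2 and Lamc3 were higher (8.06% of all genes) and Itgav, Itgb1 and Itgb8 lower (7.9% of all genes). Itgb1 was then at -0.39 ± 0.085 (adjusted p = 0.0281), Itgav at -0.55 ± 0.15 (0.0437) and Itgb8 at -0.79 ± 0.22 (0.0428), where with all 8 kidneys they were 0.090, -0.14 and -0.40. The direction of Itga7, Itgb5, Lama5, Lamb2 and Itgb1 thus turned when A115 was left out. These calls rest on 3 ADV-conditioned kidneys, and their share of the genes tested lay near that of all genes. In A75, A91 and A94 the smooth muscle markers (113, 42.0 and 58.4 FPKM, LD 23.3 to 38.9) summed to more than in every LD-conditioned kidney. So did those of other tissue such as adipose and red cells (454, 275 and 567, LD 129 to 271), of proximal tubule and of podocytes. The sums of all leukocytes and of endothelium overlapped. The part of these tissues in the calls was not tested.

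**Figure D5:**
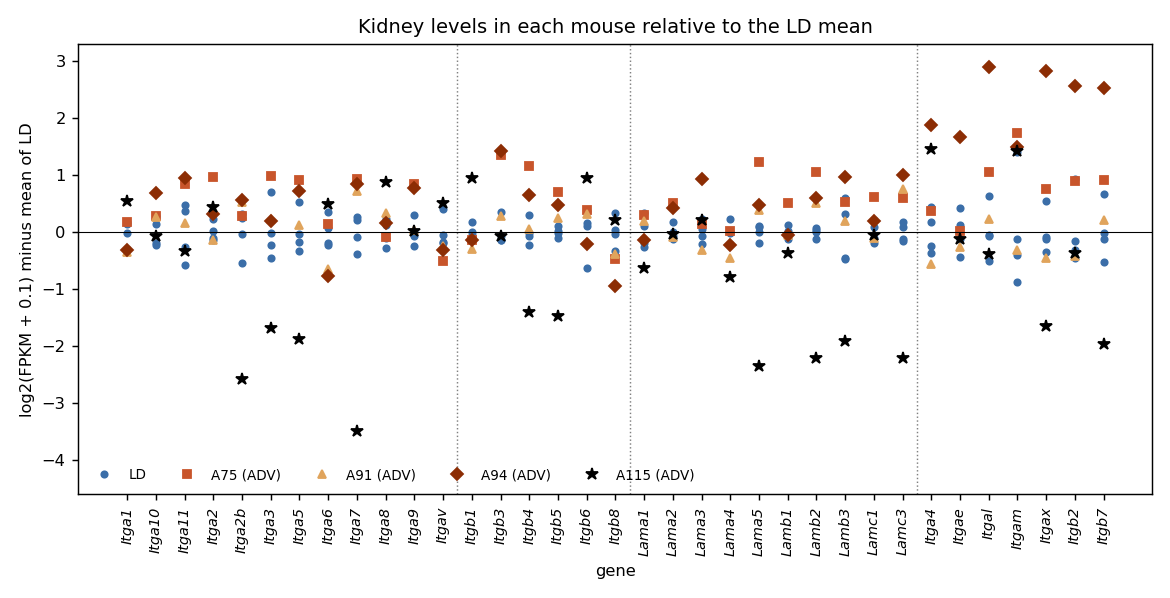
Kidney level of integrin and laminin genes in each mouse as the difference of log2(FPKM + 0.1) from the mean of the LD-conditioned mice, with dotted lines between alpha chains, beta chains, laminins and leukocyte chains. The star of A115 is the lowest point for most of the laminins, and the diamond of A94 is the highest for 6 of 7 leukocyte chains.

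The difference of the ADV effect between the organs was tested with an interaction term over the 12319 genes tested in both organs. None of the 31 genes passed an adjusted p of 0.05, as no gene did (0%), and 2 had an unadjusted p under 0.05. The effect on Lama3 was higher in kidney by 1.3 ± 0.50 on the log2 scale (0.471% of all genes in this direction), with 3.44, 3.93, 3.15 and 2.87 FPKM in the LD-conditioned and 3.68, 2.64, 6.41 and 3.89 in the ADV-conditioned kidneys. That on Lamb1 was lower in kidney, at -0.81 ± 0.33 (2.99% of all genes in this direction). The adjusted p was 0.9999 for both. This fit does not use that both organs came from the same mice. With the mouse as a block, Itga6 joined Lamb1 as lower in kidney at an unadjusted p under 0.05 (2.7% of all genes). Lama3 kept that p, and none of the 31 passed an adjusted one. Without A115 and with median-ratio scaling, Itga1 and Itgb1 passed, with -0.73 ± 0.19 and -0.45 ± 0.11 (adjusted p = 0.0441 and 0.0431, 1.96% of all genes).

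Genes that work with integrins and laminins were looked up in 4 lists, none of which held a gene at an adjusted p under 0.05 in either organ. Of 35 genes of the adhesion complex on the cytoplasmic side of integrins, 3 were higher and 1 lower in liver at an unadjusted p under 0.05 (8.65% and 3.13% of all genes) and none in kidney (1.75% and 1.35%). The median log2 fold change of this list was 0.18 in liver and -0.065 in kidney, where all genes had 0.096 and -0.02. Lims1, the PINCH adaptor of integrin-linked kinase, had 3.75, 3.23, 3.65 and 3.45 FPKM in LD and 4.92, 5.25, 7.93 and 4.99 in ADV (0.67 ± 0.16, adjusted p = 0.296), with no overlap. The tetraspanin Cd151, a companion of laminin-binding integrins, had 20.1, 18.4, 20.3 and 17.6 against 20.9, 22.6, 26.3 and 23.1 (0.28 ± 0.099, adjusted p = 0.366). In kidney Apbb1ip (0.95 ± 0.52) and Parvg (0.91 ± 0.70) had the smallest p-values, with overlapping groups.

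Of 22 tested basement membrane partners 6 were higher in liver (8.65% of all genes) and none lower, with a median log2 fold change of 0.56 (0.096 over all genes), and of 23 in kidney 1 was higher (1.75% of all genes), with a median of 0.16 (-0.02 over all genes). Ntn4, the netrin that caps laminin networks, had 2.18, 1.69, 2.46 and 2.18 FPKM in the LD-conditioned livers and 3.61, 3.04, 3.32 and 4.32 in the ADV-conditioned livers (0.72 ± 0.16, adjusted p = 0.27). Here A94 was not the highest. Col15a1, a collagen of vascular membranes, had 0.236, 0.315, 0.501 and 0.437 against 0.898, 0.512, 0.866 and 1.33 (1.06 ± 0.29, adjusted p = 0.299), and in kidney 1.81, 2.77, 4.68 and 2.12 against 10.1, 2.79, 5.86 and 9.35 (1.21 ± 0.46). Ntn4 in kidney had a log2 fold change of 0.30 ± 0.15.

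Among 16 tested matrix ligands of integrins 2 were higher in liver (8.65% of all genes) and 1 in kidney (1.75%), with medians of 0.46 and 0.54 beside 0.096 and -0.02 over all genes. In liver these were Fbn1, fibrillin-1, with 0.129, 0.171, 0.157 and 0.156 FPKM in LD and 0.443, 0.165, 1.47 and 0.403 in ADV (1.20 ± 0.46, adjusted p = 0.385), and Thbs1, thrombospondin-1, with 0.108 to 0.154 in LD and 0.473, 0.178, 4.96 and 0.544 in ADV (1.85 ± 0.74, adjusted p = 0.391). In kidney Fbn1 had 0.870, 0.701, 1.11 and 0.594 against 2.89, 1.01, 1.95 and 1.85 (1.09 ± 0.34), and fibronectin, Fn1, had 0.94 ± 0.50. A91 alone lay in the LD range for Fbn1, in both organs. In kidney the markers of stellate cells and fibroblasts summed to 45.6 to 72.9 FPKM in LD and to 113, 54.0, 144 and 98.5 in A75, A91, A94 and A115, and those of smooth muscle to 23.3 to 38.9 and to 113, 42.0, 58.4 and 31.5. Markers of other tissue (adrenal, adipose, pancreas, skeletal muscle and red cells) summed to 129 to 271 in LD and to 454, 275, 567 and 106 in these ADV mice. No marker of these lists was higher in every ADV mouse. Their part in the kidney values of the matrix genes was not tested. Of 10 tested ligands of leukocyte integrins, whose medians were 0.52 in liver and 0.22 in kidney, 2 were higher in liver (8.65% of all genes), Jam2 (0.49 ± 0.20, adjusted p = 0.394) and Cdh1, the E-cadherin bound by the Itgae chain (1.09 ± 0.46, adjusted p = 0.412), and none in kidney, where C3 (1.78 ± 1.07) and Thy1 (0.82 ± 0.65) had the smallest p-values.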

How the data were processed

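RNA-seq was analysed for the liver and kidney of 4 LD-conditioned and 4 ADV-conditioned mice. As the authors' methods state, adaptors were trimmed with Trimmomatic, reads were mapped to GRCm38/mm10 with STAR (version 2.5.4b per the labels), reads of low mapping quality were removed with SAMtools, and exons of UCSC known canonical genes were counted with Homer. The submitters' processing notes also name bcl2fastq. The values deposited by the authors are FPKM scaled to each library's own total, in 1 table per organ, although the headers call them RPKM. Multiplied by exon length and library total, 100% of the values were multiples of 0.5 fragment within a tolerance of 0.01 of that unit. Whether Homer used the strand is not given in the sources used here, so reads of the 12 genes that share exon bases with another gene (GENCODE vM21) may be uncertain.

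Genes with a mean above 0.5 CPM (fragments scaled to library size) were tested in R (version 4.3.3) with limma (version 3.58.1, lmFit and eBayes with a trend) on log2(FPKM + 0.1), organ by organ, as the deposited unit is FPKM, with Benjamini-Hochberg adjustment over all genes tested, and an exact permutation test was used for single genes. The effect in kidney minus that in liver was tested as an interaction term. The code was tested on simulated data. The members and lists were chosen with earlier results of these data known. Integrin and laminin genes given with all values were those with an unadjusted p under 0.05 or without overlap of the groups, and the 2 with the smallest p per group and organ. From the lists, the 2 genes with the smallest p per list and organ were given, some with a fold change alone. Further integrin and laminin genes given per mouse (Itgb2, Itgal, the genes of A115 in kidney, and kidney Lamb1 and Lama3) or with a fold change alone were chosen after their values were seen. Alternatives were other pseudocounts, filters, scalings, no trend, limma-voom on the recovered fragments, a replicate block for the mouse, each mouse left out, and A94 or A115 left out with median-ratio scaling. Liver and kidney with the same mouse number come from the same animal, and the correlation of their deviations from the group means was 0.0982 to 0.185 in LD and -0.0242, 0.334, 0.553 and 0.0423 in A75, A91, A94 and A115. No further column of per-sample values was left out, and protein sequences were not used here. The values of 1 gene are not reported here, and the counts include it.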

Additional observations from a re-analysis of the deposited data

Results flagged for a closer look

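In groups of 4 mice, 17 of 134 sets of values of integrin and laminin genes had a mouse set apart from the other 3 by a gap above Dixon's 95% critical value for its share of the group's range. Chance sets about 1 in 20 such groups apart. A94 was the mouse set apart in 7 cases and A115 in 6.

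In the ADV-conditioned livers A94 stood high for Itga4 (1.65 FPKM), Itgal (7.40), Itgax (2.25), Itgb2 (11.4), Itgb7 (4.62) and Lama2 (1.23). Of these, 5 are leukocyte chains and Lama2 is a laminin chain. In the ADV-conditioned kidneys A94 stood high for Itgae (1.82 FPKM). The liver and kidney libraries of A94 were also those with the highest sums of leukocyte markers, 135 and 157 FPKM, and the part of these cells was not tested.

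In the ADV-conditioned kidneys A115 stood low for Itga2b (0.0766 FPKM), Itga7 (0.0131), Lamb2 (1.18) and Lamc3 (0.257) and high for Itgb1 (171). In liver A115 stood high for Itga7 (2.67 FPKM), so that this mouse had the highest liver and the lowest kidney value of that gene.

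Of the remaining cases, A91 was low for Itga6 in liver (0.295 FPKM) and for Itgam in kidney (0.577). L86 was high among the LD-conditioned mice for Itga6 in liver (0.587) and for Itgb3 in kidney (0.333).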

How the results depend on the processing

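For single genes given with a fold change, 703 values under alternatives kept their direction and their side of the threshold, and 34, all of kidney genes chosen after their values were seen, turned direction. With A115 left out and median-ratio scaling, Itga7 (0.65), Itgb5 (0.27), Lama5 (0.51) and Lamb2 (0.53) turned to higher and Itgb1 (-0.39) and Lamb1 (-0.058) to lower, while Itgav (-0.55), Itgb8 (-0.79) and Lamc3 (0.60) kept their direction and passed the threshold. With a pseudocount of 0.5 and 1, Itga7 turned to 0.075 and 0.13, Lama5 to 0.015 and 0.064 and Lamb2 to 0.038 and 0.074. Median-ratio scaling turned Lamb1 to -0.0030 and Lamc3 to -0.0029, quantile normalization turned them to -0.0035 and -0.028 and Lamb2 to 0.050, and Lamc3 was -0.038 in limma-voom and -0.26 without A94 with median-ratio scaling. With 1 mouse left out, the kidney values ranged from -0.64 to 0.83 for Itga7, -0.20 to 0.22 for Itgb1, -0.25 to 0.47 for Itgb5, -0.50 to 0.70 for Lama5, -0.16 to 0.14 for Lamb1, -0.37 to 0.72 for Lamb2 and -0.29 to 0.79 for Lamc3. The count of all genes called in liver was 1, and 6 with no filter (0 to 9 with 1 mouse left out). The 7 liver members at an unadjusted p under 0.05 became 3 at a mean FPKM above 1 (5 to 13 with 1 mouse left out, 13 without A91). Quantile normalization moved the liver medians to 0.14 for alpha chains and to -0.068 for laminins, and the filter at FPKM above 1 moved the latter to 0.58. Median-ratio scaling gave 0.14 for the beta chains of the liver. A pseudocount of 0.5 lowered the median over the 31 liver genes to 0.27, where all genes had 0.082. In kidney the count of all genes called was 0, and 0 to 2724 with 1 mouse left out, the latter without A115, and 2309 when median-ratio scaling was added. Kidney members numbered 0 to 5 at an adjusted p (6 with that scaling) and 0 to 11 at an unadjusted p (13 with it), and 1 with either scaling of all mice. Kidney medians of the alpha chains ranged from -0.060 to 0.43 and of the beta chains from -0.033 to 0.32. For the difference between the organs, called genes numbered 0 to 458 with 1 mouse left out, 1 under either scaling and 656 without A115 with median-ratio scaling, members at an adjusted p then 2. The 2 members at an unadjusted p became 1 at FPKM above 1, with a pseudocount of 1 or without A94 with median-ratio scaling, 10 without A115 with that scaling, and 1 to 9 with 1 mouse left out. The mouse as a replicate block, in 1 fit of both organs, gave 1 called gene in kidney, as the same fit with no block did. Either fit left 5 liver members at an unadjusted p, with Itga7 and Lamb3 lost from the 7 found organ by organ, and for the difference between the organs the block gave 3 members in place of 2, with Itga6 added. No member passed an adjusted p under the block. The cause was not tested. Genes under about 30 fragments a library, such as Itga10 and Itgad in liver, and Itgae in some livers, are limited by depth.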
